A study of Mus musculus with 30 samples.

Results

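Immune checkpoint genes encode receptors and ligands that limit an immune response, and exhaustion genes mark T cells that have met antigen for a long time. The 8 genes described here are Cd274, Pdcd1, Ctla4, Lag3, Havcr2, Tox, Icos and Ido1, chosen by name, and all 8 were found among the 39676 genes of the count table. They were followed through 30 whole mouse melanomas in 3 tumor types of 10 tumors each, taken 8 days after inoculation and profiled by bulk RNA sequencing.

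Tumors were grown from B16-F10 melanoma cells injected under the skin of adult female C57BL/6 mice. A retrovirus carried enhanced GFP with IFNα4 (B16.IFNα4.gB.luc), GFP with IFNα9 (B16.IFNα9.gB.luc) or GFP with no interferon (B16.GFP.gB.luc, the control). In the interferon lines a murine stem cell virus promoter drives the interferon constantly in the melanoma cells. All 3 lines also carry herpes simplex virus glycoprotein B with cyan fluorescent protein, and firefly luciferase with puromycin resistance, so the controls share these foreign proteins. Each line was sorted for GFP and cyan fluorescence and grown on as 1 line, so line and interferon cannot be told apart. No other treatment is named for these tumors. The types are called GFP, IFNα4 and IFNα9 tumors below.

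Depth was similar throughout, from 14598517 to 19788383 counts per tumor. Ifna4 had 81 to 188 counts in each IFNα4 tumor and 0 in the others, and Ifna9 had 55 to 148 counts in each IFNα9 tumor and 0 in the others, so the labels and the introduced genes matched in 30 of 30 tumors. GFP tumor 7 stood apart, with the fewest CD3 counts (21) and the lowest Cd274, Havcr2 and Lag3 levels of the 30 tumors. Without it the same number of members, 7, 7 and 2, passed in the 3 comparisons. Levels are given as CPM, counts relative to the size of the library, after scaling of the libraries by TMM, a method that equalizes libraries over most genes. Fold changes are log2 values from edgeR with their standard error (SE). A gene was called when its p, adjusted by Benjamini-Hochberg over 15926 genes, was under 0.05. In bulk tissue, fewer cells of a type and less RNA per cell cannot be told apart.

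PD-1 (Pdcd1) and CTLA-4 (Ctla4) are inhibitory receptors of activated T cells. PD-1 is engaged by PD-L1 (Cd274), which tumor and myeloid cells display and which interferons are known to induce. CTLA-4 competes with the activating receptor CD28 for the same ligands. LAG-3 (Lag3) binds MHC class II, and TIM-3 (Havcr2), found on T cells and on myeloid cells, binds galectin-9. ICOS (Icos) is an activating receptor of the CD28 family, TOX (Tox) is a nuclear protein of the exhaustion program, and IDO1 (Ido1) is an enzyme that starts tryptophan breakdown toward kynurenine.

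In both interferon types 7 of the 8 genes were higher than in GFP tumors, all but Ido1. The median log2 fold change of the 8 was 2.41 in IFNα4 tumors and 2.02 in IFNα9 tumors, beside medians of 0.01 and 0.00 over all genes tested. Among all genes, 65.4% were called in IFNα4 tumors and 31.3% were called and higher. In IFNα9 tumors the shares were 55.7% and 26.9%. The ranges of the tumor types did not overlap for 5 of the 8 in IFNα4 tumors (Cd274, Lag3, Havcr2, Tox and Icos), where 18.5% of all genes had ranges apart. In IFNα9 tumors they did not overlap for 3 (Cd274, Havcr2 and Tox), beside 7.79% of all genes. Both comparisons share the same 10 GFP tumors.

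**Figure D1:**
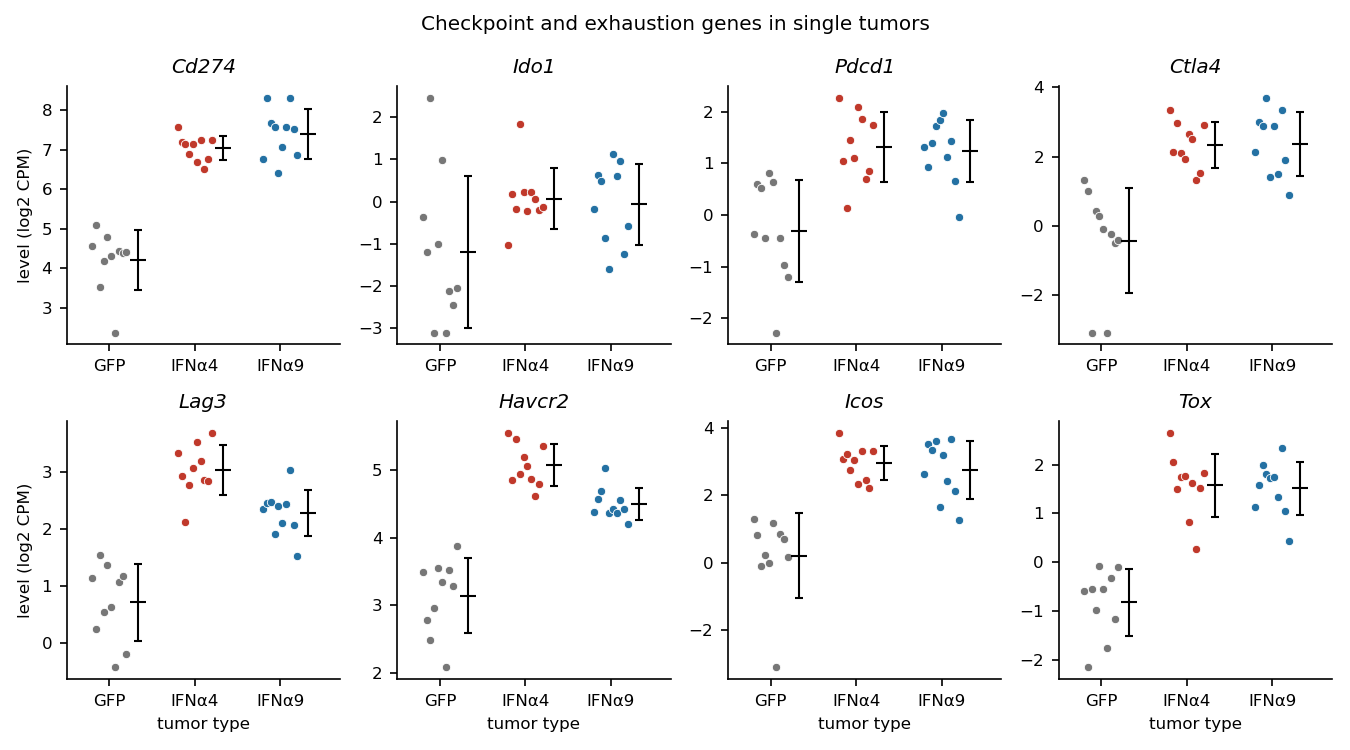
Level of each gene (log2 CPM, vertical axis) in the 10 GFP, 10 IFNα4 and 10 IFNα9 tumors, 1 point per tumor. Horizontal bars are means and vertical bars 1 SD. For Cd274, Havcr2 and Tox every interferon tumor lies above every GFP tumor, and for Ido1 the 3 types overlap. The lowest GFP values of Ctla4, Icos and Ido1 are counts of 0.

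Cd274 was the member with the highest level per kilobase and the largest fold change in either comparison. The gene lies on chromosome 19 (GRCm38, 29367455 to 29388095, plus strand). Its promoter is shown because interferon signals are known to act on it, and Havcr2 is shown beside it as the other promoter whose gene had ranges apart in both interferon types. Both sequences are the 250 bases before the RefSeq start in GRCm38.p6, 5′ to 3′ on the plus strand, at chr19:29367188-29367437 and chr11:46454681-46454930.

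Cd274: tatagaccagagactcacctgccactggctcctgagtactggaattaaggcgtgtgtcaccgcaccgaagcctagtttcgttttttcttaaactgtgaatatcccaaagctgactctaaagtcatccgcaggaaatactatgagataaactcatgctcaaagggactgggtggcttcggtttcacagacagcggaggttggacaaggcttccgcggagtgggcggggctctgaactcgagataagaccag

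Havcr2: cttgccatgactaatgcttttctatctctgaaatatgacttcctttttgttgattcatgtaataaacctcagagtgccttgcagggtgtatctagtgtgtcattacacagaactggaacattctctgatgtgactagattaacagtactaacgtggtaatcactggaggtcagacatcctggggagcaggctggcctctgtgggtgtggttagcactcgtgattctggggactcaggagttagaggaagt

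The RefSeq table matched 4 of the 8 members, Cd274, Pdcd1, Ctla4 and Havcr2. The interferon-stimulated response element core (GAAANNGAAA) and the gamma-activated site (TTCNNNGAA) were searched on both strands of the 300 bases from 250 before to 50 after the start. In these letters neither motif was present in the 4 windows, so no base above is in capitals. Of all 32851 promoters in the table, 3.44% held the response element core and 8.30% the gamma-activated site.

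Cd274 had a lowest, median and highest level of 5.08, 21.0 and 33.9 CPM in GFP tumors, 91.6, 143 and 189 CPM in IFNα4 tumors and 84.6, 187 and 318 CPM in IFNα9 tumors. Each interferon tumor was above each GFP tumor. The log2 fold change was 2.72 (SE 0.25, adjusted p = 1.29e-10) in IFNα4 tumors and 3.18 (SE 0.25, adjusted p = 1.46e-11) in IFNα9 tumors. IFNα9 tumors spread widely, from 1 tumor below every IFNα4 tumor to 5 above every IFNα4 tumor. The SD of log2 CPM was 0.64 in IFNα9 tumors and 0.31 in IFNα4 tumors. IFNα9 against IFNα4 gave 0.46 (SE 0.23, adjusted p = 0.180, 95% interval -0.02 to 0.93).

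The second PD-1 ligand gene, Pdcd1lg2, was sparse, at 0.884 ± 0.526 CPM in GFP, 2.61 ± 0.893 in IFNα4 and 5.34 ± 2.01 in IFNα9 tumors (SD, n = 10). It rose by 1.54 (SE 0.30, adjusted p = 4.78e-05) in IFNα4 and by 2.57 (SE 0.30, adjusted p = 3.27e-08) in IFNα9 tumors on the log2 scale. Between the interferon types it was higher in IFNα9 tumors by 1.03 (SE 0.27, adjusted p = 0.00836).

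Of 18 genes listed for the control of Cd274 and Ido1, 15 were in the count table, which had no row for Ifng, Jak2 or Socs1. Of the 15, 8 were higher and 3 lower in IFNα4 tumors, and 6 were higher and 5 lower in IFNα9 tumors. Irf1, a transcription factor of the interferon response, had a mean of 45.7 ± 17.8 CPM in GFP, 146 ± 23.5 in IFNα4 and 262 ± 122 in IFNα9 tumors (SD, n = 10). It rose by 1.67 (SE 0.23) and 2.52 (SE 0.24), with every interferon tumor above every GFP tumor, and was higher in IFNα9 than in IFNα4 tumors by 0.85 (SE 0.22, adjusted p = 0.00795). Hif1a, the hypoxia factor, fell by 0.81 (SE 0.12) in IFNα4 and by 0.51 (SE 0.12) in IFNα9 tumors, and Myc, the growth regulator, fell by 0.60 (SE 0.10) and 0.53 (SE 0.10). Between the interferon types 1 of the 15 was higher in IFNα9 tumors, Irf1, and 2 were lower, Socs3 (-0.56, SE 0.18), which encodes a brake on cytokine signals, and Ifngr2 (-0.30, SE 0.06), a chain of the IFN-γ receptor.

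**Figure D2:**
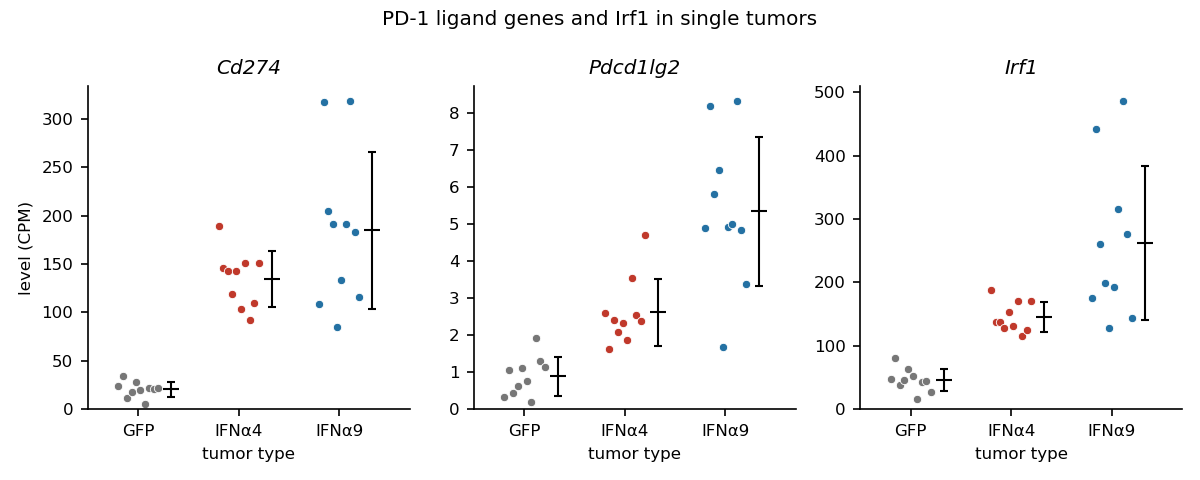
Levels of Cd274, Pdcd1lg2 and Irf1 (CPM on a linear axis from 0, vertical) in single tumors of the 3 types, with mean and SD (n = 10). Irf1 and Cd274 lie between 16.6 and 80.0 CPM and between 5.08 and 33.9 CPM in GFP tumors, below every interferon tumor. The same 2 IFNα9 tumors, 2 and 8, hold the highest 2 values of each gene.

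Pdcd1 (chromosome 1, 94038305 to 94052553, minus strand) had few reads, from 1 to 30 counts in GFP tumors. Its lowest, median and highest levels were 0.0892, 0.638 and 1.65 CPM in GFP, 0.973, 2.32 and 4.71 CPM in IFNα4 and 0.861, 2.45 and 3.80 CPM in IFNα9 tumors. The types overlapped, with 8 of 10 tumors of each interferon type above all GFP tumors. The log2 fold change was 1.60 (SE 0.34, adjusted p = 0.000149) in IFNα4 and 1.48 (SE 0.34, adjusted p = 0.000497) in IFNα9 tumors, the smallest rise of the called members in IFNα4 tumors.

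Ctla4 (chromosome 1, 60887000 to 60915832, plus strand) had 0 counts in GFP tumors 3 and 7 and up to 44 in the others. The lowest, median and highest levels were 0, 0.773 and 2.40 CPM in GFP, 2.36, 4.90 and 9.97 CPM in IFNα4 and 1.72, 5.72 and 12.9 CPM in IFNα9 tumors. In each interferon type 9 of 10 tumors were above all GFP tumors. It rose by 2.49 (SE 0.44, adjusted p = 1.72e-05) and 2.64 (SE 0.44, adjusted p = 1.41e-05).

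Icos lies beyond Ctla4 on the same strand (60977927 to 61000320), with lowest, median and highest levels of 0, 1.28 and 2.35 CPM in GFP, 4.54, 8.16 and 14.4 CPM in IFNα4 and 2.27, 7.49 and 12.5 CPM in IFNα9 tumors. The single 0 was GFP tumor 7. All 10 IFNα4 tumors and 9 of 10 IFNα9 tumors were above all GFP tumors. Icos rose by 2.60 (SE 0.35, adjusted p = 2.07e-07) and 2.50 (SE 0.35, adjusted p = 8.11e-07).

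Lag3 (chromosome 6, 124904361 to 124911705, minus strand) had lowest, median and highest levels of 0.624, 1.71 and 2.82 CPM in GFP, 4.25, 7.94 and 12.9 CPM in IFNα4 and 2.77, 5.10 and 8.12 CPM in IFNα9 tumors. IFNα4 tumors were all above the GFP range, and 9 of 10 IFNα9 tumors were. The rise was 2.32 (SE 0.23, adjusted p = 7.71e-10) in IFNα4 and 1.54 (SE 0.23, adjusted p = 2.37e-06) in IFNα9 tumors.

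Havcr2 (chromosome 11, 46454935 to 46481255, plus strand) had lowest, median and highest levels of 4.10, 9.82 and 14.5 CPM in GFP, 24.5, 31.9 and 47.0 CPM in IFNα4 and 18.3, 21.3 and 32.7 CPM in IFNα9 tumors. The GFP range was below both interferon ranges. The rise was 1.89 (SE 0.17, adjusted p = 8.05e-11) in IFNα4 and 1.30 (SE 0.17, adjusted p = 2.12e-07) in IFNα9 tumors. Its spread was the narrowest of the 8 genes in IFNα9 tumors, with a log2 SD of 0.23.

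Tox (chromosome 4, 6686353 to 6991557, minus strand) had few reads, with 2 to 15 counts in GFP tumors. The lowest, median and highest levels were 0.107, 0.554 and 0.824 CPM in GFP, 1.09, 3.11 and 6.19 CPM in IFNα4 and 1.23, 3.02 and 4.93 CPM in IFNα9 tumors, with no overlap between GFP and either interferon type. It rose by 2.62 (SE 0.30, adjusted p = 1.42e-08) and 2.51 (SE 0.30, adjusted p = 6.92e-08).

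Ido1 (chromosome 8, 24584136 to 24597009, minus strand) was the member that passed in neither comparison with GFP tumors. Its counts ran from 0 to 86 in GFP, from 6 to 58 in IFNα4 and from 4 to 39 in IFNα9 tumors, and its lowest, median and highest levels were 0, 0.223 and 5.38 CPM, 0.371, 0.856 and 3.44 CPM, and 0.215, 1.03 and 2.06 CPM. The highest value of all 30 tumors was in GFP tumor 3, and the 3 types overlapped. The log2 fold change was 0.28 (SE 0.63, adjusted p = 0.699, 95% interval -0.99 to 1.56) in IFNα4 and 0.20 (SE 0.63, adjusted p = 0.800, 95% interval -1.08 to 1.48) in IFNα9 tumors. Without GFP tumor 3 it was 1.43 (adjusted p = 0.0266) and 1.35 (adjusted p = 0.0434), so this single tumor decided both calls.

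10 other genes of tryptophan breakdown and its sensing were tested, of which 4 were higher and 3 lower in IFNα4 tumors and 4 higher and 2 lower in IFNα9 tumors. Kynu, which encodes kynureninase, rose by 1.60 (SE 0.30) and 1.69 (SE 0.30), from 0.794 ± 0.568 CPM in GFP to 2.45 ± 0.580 in IFNα4 and 2.62 ± 0.631 in IFNα9 tumors (SD, n = 10). Tdo2, which encodes tryptophan dioxygenase, rose by 1.37 (SE 0.38) and 1.56 (SE 0.38) at no more than 1.37 CPM in any tumor. Ido2, the paralog of Ido1, had 0 to 15 counts per tumor and was not tested. Wars, the tryptophan tRNA synthetase, fell by 0.96 (SE 0.13) and 0.57 (SE 0.13), and Kyat3, a kynurenine aminotransferase, fell by 0.94 (SE 0.13) and 0.43 (SE 0.13). Both were higher in IFNα9 than in IFNα4 tumors, Wars by 0.40 (SE 0.13) and Kyat3 by 0.52 (SE 0.13).

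The interferon types differed in 2 of the 8 members, beside 17.8% of all genes. Lag3 was lower in IFNα9 than in IFNα4 tumors by a log2 fold change of -0.78 (SE 0.22, adjusted p = 0.0115, 95% interval -1.23 to -0.34), with 4 of 10 IFNα9 tumors below all IFNα4 tumors. Havcr2 was lower by -0.59 (SE 0.16, adjusted p = 0.0116, 95% interval -0.92 to -0.25), with 8 of 10 IFNα9 tumors below all IFNα4 tumors. For none of the 8 genes were the ranges of the interferon types apart, as they were for 2.83% of all genes. The intervals for Pdcd1 (-0.77 to 0.53), Ctla4 (-0.67 to 0.97), Tox (-0.65 to 0.44) and Icos (-0.74 to 0.55) hold 0 and are wide enough for differences in either direction, as is that for Ido1 (-1.35 to 1.18).

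**Figure D3:**
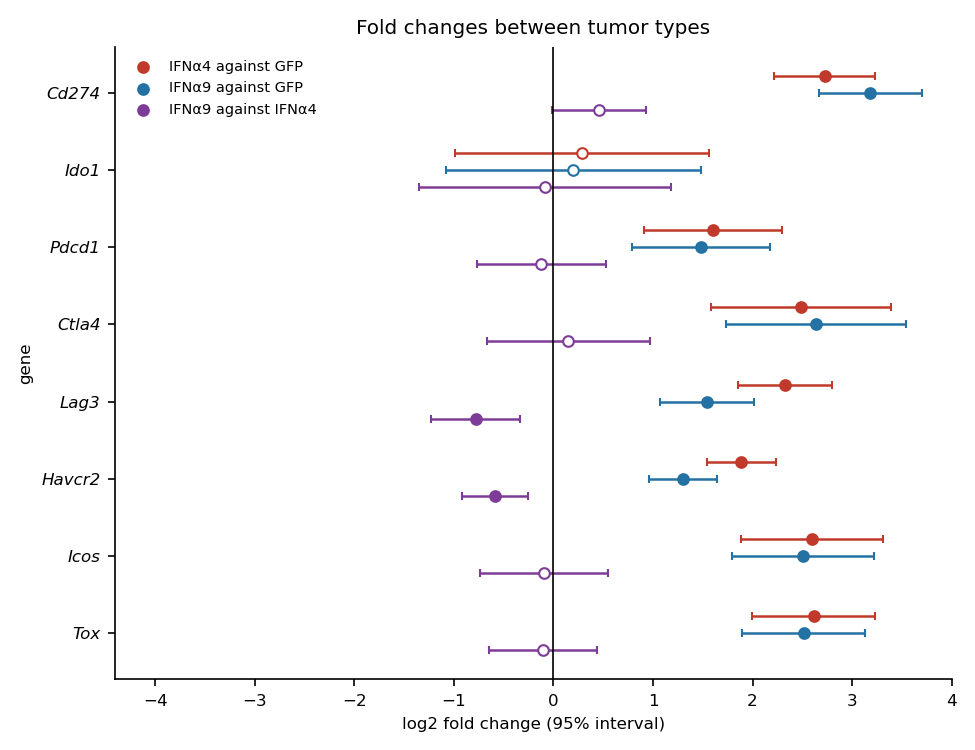
Log2 fold change of each gene (horizontal axis) with its 95% interval for the 3 comparisons. Filled circles passed an adjusted p of 0.05 and open circles did not. All 7 genes other than Ido1 are filled against GFP, and between the interferon types the filled genes are Lag3 (-0.78) and Havcr2 (-0.59).

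Per kilobase of exon, which allows levels of different genes to be compared, Cd274 was the highest member and Havcr2 the next in each type. Cd274 had 5.60 ± 2.19, 37.1 ± 7.96 and 51.0 ± 22.4 CPM per kb in GFP, IFNα4 and IFNα9 tumors, and Havcr2 had 3.39 ± 1.18, 12.6 ± 2.79 and 8.38 ± 1.49 (SD, n = 10). The ranges of this pair overlapped in GFP tumors and were apart in both interferon types. Lag3 followed in IFNα4 tumors at 4.01 ± 1.19 CPM per kb, ahead of Icos (2.36 ± 0.864) and Ctla4 (2.32 ± 1.04), with overlapping ranges. In IFNα9 tumors Ctla4 (2.58 ± 1.57), Lag3 (2.33 ± 0.679) and Icos (2.20 ± 1.12) lay within 1 SD of each other. Pdcd1 had a lower mean, with ranges that overlapped those of Ctla4 and Icos, at 1.36 ± 0.633 and 1.25 ± 0.470 CPM per kb. Ido1 (0.597 ± 0.465 and 0.563 ± 0.360) and Tox (0.411 ± 0.181 and 0.383 ± 0.139) closed the order with overlapping ranges in both interferon types. In GFP tumors Lag3 (0.793 ± 0.350), Ido1 (0.489 ± 0.917), Pdcd1 (0.439 ± 0.284), Ctla4 (0.402 ± 0.325) and Icos (0.382 ± 0.203) had overlapping ranges, and Tox had the lowest mean, 0.0657 ± 0.0325. The GFP mean of Ido1 rests largely on GFP tumor 3, with 5.38 CPM beside a GFP median of 0.223 CPM. Levels per kilobase rest on the full exon length of each gene in GENCODE M21, whichever transcripts were present.

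Ligands and partners of the receptors moved in both directions. Of 7 tested, 4 were higher and 2 lower in IFNα4 tumors, and likewise 4 and 2 in IFNα9 tumors. Cd80 and Icosl, also listed, had no row in the count table. Cd28, the activating receptor that shares its ligands with CTLA-4, rose from 1.07 ± 0.413 CPM in GFP to 12.6 ± 4.60 in IFNα4 and 7.46 ± 3.69 in IFNα9 tumors (SD, n = 10), by 3.54 (SE 0.30) and 2.78 (SE 0.29). It was lower in IFNα9 than in IFNα4 tumors by -0.76 (SE 0.26, adjusted p = 0.0411). Hmgb1, a nuclear protein that can bind TIM-3, fell by 1.03 (SE 0.13) and 0.83 (SE 0.13). Lgals9, the gene of the TIM-3 ligand galectin-9 and named here after its values were seen, had 154 ± 37.5 CPM in GFP, 434 ± 39.5 in IFNα4 and 402 ± 43.0 in IFNα9 tumors, a rise of 1.50 (SE 0.11) and 1.38 (SE 0.11). Ceacam1 fell by 0.31 (SE 0.11) in IFNα4 tumors, and Lgals3, the gene of galectin-3, fell by 0.25 (SE 0.09) in IFNα9 tumors and was lower there than in IFNα4 tumors by -0.44 (SE 0.09).

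Of 16 further coinhibitory receptors and their ligands, 12 were higher and 3 lower in IFNα4 tumors, and 11 were higher and 1 lower in IFNα9 tumors. Tigit and Adora2a, also listed, had no row in the count table. Pvrig, a receptor of T and NK cells, rose by 2.90 (SE 0.42) and 2.89 (SE 0.42), with 0 to 8 counts in GFP tumors and overlapping ranges. Lair1, a collagen receptor of leukocytes, rose by 2.51 (SE 0.21) and 2.10 (SE 0.21). Klrg1, a receptor of late effector cells, rose by 2.31 (SE 0.33) and 3.11 (SE 0.34). A pair of ligands found on tumor cells, Cd276 (B7-H3) and Pvr, had lower values: Cd276 fell by 0.36 (SE 0.09) and 0.44 (SE 0.09), and Pvr fell by 0.31 (SE 0.12) in IFNα4 tumors. Between the interferon types Nectin2 was higher in IFNα9 tumors by 0.43 (SE 0.12) and Cd160 lower by -0.63 (SE 0.21), and the other 14 were not called.

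Of 7 further costimulatory receptors, 5 were higher in each interferon type. Cd27 rose by 3.76 (SE 0.33) and 2.92 (SE 0.33). Tnfrsf8 (CD30), with 1 to 11 counts in GFP tumors, rose by 1.77 (SE 0.38) and 2.13 (SE 0.38). Cd226, which shares ligands with coinhibitory receptors, rose by 1.66 (SE 0.26) and 2.42 (SE 0.26). The interferon types differed in opposite directions, with Cd27 lower in IFNα9 tumors by -0.84 (SE 0.29, adjusted p = 0.0385) and Cd226 higher by 0.75 (SE 0.24, adjusted p = 0.0294).

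Of 18 further genes tied to exhaustion and its precursors, 11 were higher and 4 lower in IFNα4 tumors, and 10 were higher and 4 lower in IFNα9 tumors. Nr4a1, Nfatc1 and Id2, also listed, had no row in the count table. The T-box factors Tbx21 (T-bet) and Eomes, expressed in T and NK cells, led the rises. Tbx21 rose from 0.427 ± 0.290 CPM in GFP to 8.95 ± 2.78 in IFNα4 and 4.73 ± 2.10 in IFNα9 tumors (SD, n = 10), by 4.35 (SE 0.32) and 3.43 (SE 0.31). Eomes rose by 3.41 (SE 0.29) and 3.03 (SE 0.29). Cd38, an enzyme that degrades NAD, went the other way and fell by 1.80 (SE 0.15) in IFNα4 and by 0.84 (SE 0.15) in IFNα9 tumors. Nr4a3, a nuclear receptor, fell by 0.80 (SE 0.13) and 0.64 (SE 0.13). In GFP tumors the means were 36.1 CPM for Cd38 and 153 CPM for Nr4a3, beside 7.41 CPM for Cd3d, Cd3e and Cd3g summed. Which cells held the Cd38 and Nr4a3 transcripts was not tested. Between the interferon types, Cd38 was higher in IFNα9 tumors by 0.96 (SE 0.15, adjusted p = 2.67e-05) and Nfatc2 by 0.26 (SE 0.09), while Tbx21 was lower by -0.92 (SE 0.26, adjusted p = 0.0126) and Slamf6, a receptor of precursor cells, by -0.77 (SE 0.23, adjusted p = 0.0158).

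T cell transcripts moved with the members. The markers of the T cell list were higher in 10 of 10 cases in IFNα4 tumors and in 9 of 10 in IFNα9 tumors, where Cd4 gave 0.66 (adjusted p = 0.244). Their summed level was 7.58 to 64.9 CPM in GFP, 87.8 to 186 CPM in IFNα4 and 38.2 to 139 CPM in IFNα9 tumors. The highest GFP sum was that of GFP tumor 8, whose Cd4 level was 46.4 CPM (822 counts), while the other GFP tumors had Cd4 levels of 0.446 to 4.83 CPM. Without this tumor the GFP sums were 7.58 to 29.7 CPM, below every interferon tumor. Cd4 was 5.26 to 16.6 CPM in IFNα9 tumors, and the part of GFP tumor 8 in its fold change was not tested. NK cell markers were higher in 6 of 6 cases in each interferon type, with sums of 4.28 to 28.9, 107 to 310 and 58.1 to 195 CPM, and 3 of the 6 were lower in IFNα9 than in IFNα4 tumors. Regulatory T cell markers were higher in 4 of 4 tested, with sums of 10.3 to 53.4, 53.8 to 79.2 and 35.3 to 71.4 CPM. Ptprc, which encodes CD45 on leukocytes, rose by 2.65 and 2.14. Of 9 dendritic cell markers 3 were higher in IFNα4 tumors, and 7 were higher and 1 lower in IFNα9 tumors, and their sums were 45.8 to 145, 104 to 135 and 118 to 173 CPM. Of 8 macrophage and monocyte markers 3 were higher and 2 lower in IFNα4 tumors and 3 were higher in IFNα9 tumors, with sums of 506 to 2159, 1624 to 2841 and 1402 to 2434 CPM. Named after their values were seen, the monocyte genes Ly6c2 and Ccr2 rose by 3.24 (SE 0.18) and 1.91 (SE 0.20) in IFNα4 and by 2.35 (SE 0.17) and 1.65 (SE 0.20) in IFNα9 tumors, while the macrophage genes Mrc1 and C1qc fell by 0.78 (SE 0.21) and 0.58 (SE 0.21) in IFNα4 tumors. Of 4 tested markers of group 2 innate lymphoid cells (ILC2) 3 were higher in each interferon type. The sums of the list were 23.2 to 105 CPM in GFP, 147 to 362 CPM in IFNα4 and 83.6 to 151 CPM in IFNα9 tumors. They were apart from GFP in IFNα4 tumors and overlapped it in IFNα9 tumors. In IFNα4 tumors the means were 164 CPM for Il1rl1, 76.4 CPM for Gata3 and 2.06 CPM for Il17rb, named after their values were seen. By single-cell sequencing the paper reported fewer ILC2s in IFNα4 than in control tumors, so these sums are no count of ILC2s. Of 4 endothelial markers 3 were lower in each interferon type and 1 was higher in IFNα4 tumors, with sums of 137 to 357, 190.0 to 307 and 91.3 to 180.1 CPM. The 3 melanocyte markers tested, Tyr, Tyrp1 and Mitf, were lower in both interferon types, with sums of 7214 to 22818, 2157 to 3630 and 3367 to 8916 CPM. Of 3 keratinocyte markers 2 were higher in IFNα4 tumors, Krt10 by 0.91 (SE 0.25) and Krt5 by 0.63 (SE 0.24), and 0 were called in IFNα9 tumors, with sums of 678 to 5183, 4299 to 7183 and 1234 to 5906 CPM. Of 4 skeletal muscle markers 0 were called in IFNα4 tumors and 2 were lower in IFNα9 tumors, Acta1 by -1.19 (SE 0.33) and Ckm by -0.98 (SE 0.37), with sums of 2696 to 13486, 3238 to 11590 and 1266 to 10072 CPM. Of 4 tested neutrophil markers 1 was higher and 2 were lower in each interferon type: Csf3r rose by 2.01 (SE 0.23) and 1.23 (SE 0.22), while S100a8 and S100a9 were lower, and the sums were 7.05 to 43.4, 38.3 to 77.4 and 21.2 to 40.7 CPM. The keratinocyte, muscle and neutrophil genes were also named after their values were seen. Of 3 fibroblast markers 1 was higher in each interferon type, with sums of 613 to 2736, 1398 to 2858 and 1226 to 2585 CPM, and the 1 B cell marker tested was not called. The part of these cell types in the changes of the members was not tested. No marker with a row in the count table was at 0 in all tumors of a type. Cd5, Adgre1, Cldn5, Mlana, Pmel, Dct, Sox10, Dcn, Lum and Krt1 belong to these lists but had no row there.

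The level of the T cell members was therefore also measured against CD3, the signaling part of the T cell receptor. Summed counts of Cd3d, Cd3e and Cd3g were 21 to 248 (median 122.5) in GFP, 480 to 918 (median 675.5) in IFNα4 and 185 to 756 (median 576.5) in IFNα9 tumors. Per 100 CD3 counts, Tox had a median of 7.13 counts in GFP, 8.01 in IFNα4 and 9.12 in IFNα9 tumors. Icos had 19.1, 20.3 and 22.9, Ctla4 had 8.64, 12.4 and 16.4, and Lag3 had 23.1, 20.9 and 17.8. Pdcd1 had 9.30, 6.76 and 7.25, and Havcr2 had 135, 87.0 and 71.3. The ranges overlapped between all 3 types for each of the 6 genes.

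In the same test with libraries scaled by their CD3 counts, 2 of the 6 were called in IFNα4 tumors against GFP tumors, both lower, where 97.4% of all genes were called. Pdcd1 fell by 0.84 (SE 0.31, adjusted p = 0.0115) and Havcr2 by 0.61 (SE 0.22, adjusted p = 0.00752). Without GFP tumor 2 the value of Pdcd1 was -0.61 (adjusted p = 0.0538). Lag3 gave -0.11 (adjusted p = 0.659) in IFNα4 tumors and Pdcd1 gave -0.57 (adjusted p = 0.0791) in IFNα9 tumors, neither called. In IFNα9 tumors 2 of the 6 were called and lower beside 96.6% of all genes, Havcr2 with -0.73 (SE 0.22, adjusted p = 0.00190) and Lag3 with -0.51 (SE 0.25, adjusted p = 0.0489). The adjusted p of Lag3 ran from 0.0146 to 0.114 over 34 alternatives and its call was lost in 24 of them, while its log2 fold change stayed between -0.61 and -0.41 without single tumors and was -0.51 with scaling by Ptprc, -0.63 with scaling by Cd8a, Cd8b1 and Cd4 and -0.53 with a replicate block. Tox gave 0.24 (adjusted p = 0.358) and 0.50 (adjusted p = 0.0625), Icos 0.13 (adjusted p = 0.675) and 0.35 (adjusted p = 0.253), and Ctla4 -0.02 (adjusted p = 0.955) and 0.45 (adjusted p = 0.275).

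Between the interferon types, 0 of the 6 members were called by edgeR per CD3 count, and 0 had an unadjusted p under 0.05, beside 4.80% of all genes called (765 genes). That share rests on single tumors, with 294 genes called without IFNα9 tumor 10 and 4935 without GFP tumor 7, and 0 members in either case. Lag3 gave -0.40 (SE 0.24, adjusted p = 0.239, 95% interval -0.88 to 0.09) and Havcr2 gave -0.12 (SE 0.21, adjusted p = 0.686, 95% interval -0.55 to 0.32). Per library these were the 2 members called. Havcr2, Lag3 and Icos transcripts are also known in other leukocytes, whose part in these values was not tested.

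**Figure D4:**
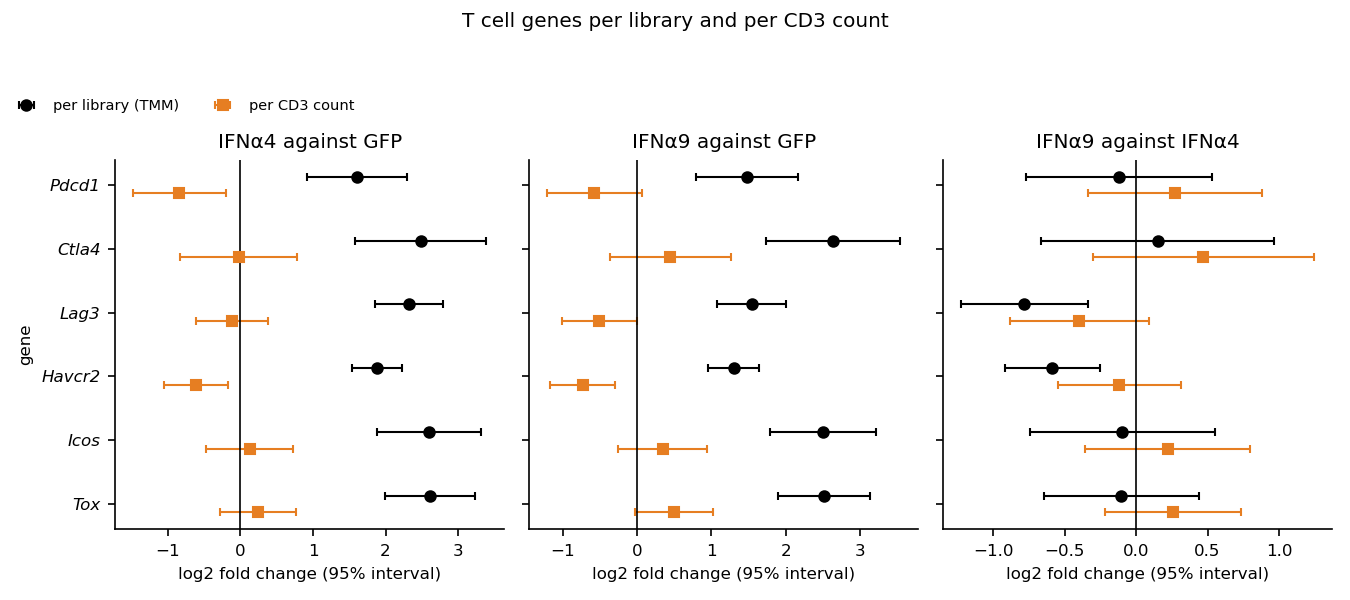
Log2 fold change with 95% interval (horizontal axis) of the 6 T cell genes in the 3 comparisons, per library (black circles) and per CD3 count (orange squares). Against GFP tumors the values per library lie between 1.30 and 2.64 and those per CD3 count between -0.84 and 0.50.

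Within tumor types, the members varied with different genes. Likeness was measured as Pearson's r of log2 CPM centred within each type over 30 tumors, as a description, since tumors share library size and cell content. The genes most like Cd274 were the guanylate-binding proteins Gbp8, Gbp5 and Gbp7, which interferon induces, each at r = 0.95, while 95% of genes were under 0.65. Without GFP tumor 7, the tumor with the lowest CD3 and Cd274 levels of the series, these were 0.93, 0.92 and 0.91. For Icos the nearest was Il2ra, the IL-2 receptor alpha chain (r = 0.93, and 0.84 without that tumor), followed by Tbc1d9 (0.86, then 0.69) and N4bp1 (0.86, then 0.72). For Tox it was Cd3g (r = 0.80, and 0.81 without it), then the chromatin organizer Satb1 (0.77) and Gimap6 (0.76).

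Pdcd1 was most like Ltb, the gene of lymphotoxin beta (r = 0.83, and 0.78 without GFP tumor 7), Pdlim2 (0.78) and Tmem79 (0.77). Lag3 was most like Coro1a, a leukocyte actin regulator (0.90), Il34 (0.90) and Arrdc1 (0.89). Havcr2 was most like Rgs1, a regulator of G protein signals in lymphocytes and myeloid cells (0.89), Klf7 (0.85) and Slamf7 (0.85). Ctla4 was most like Ep400 (0.85), Mxd1 (0.85) and Hmgn5 (0.84). Ido1 had the weakest likeness of the 8, with Prom1 (0.71), Atmin (0.68) and Hsd11b1 (0.65). The first gene stayed first without GFP tumor 7 for 6 of the 8 members, and for Ctla4 and Lag3 the first 2 changed places. Further down, the order depended on that tumor. Without it Klf7 and Slamf7 were at ranks 7 and 8 for Havcr2 (both 0.78), behind Zcchc2 (0.81) and Il1rn (0.80). For Pdcd1, Tmem79 was at rank 7 and Lck, a kinase of T cell receptor signaling, at rank 2 (0.74). For Icos, Tbc1d9 and N4bp1 were at ranks 21 and 12, and Trac, the T cell receptor alpha constant gene, was at rank 2 (0.78). For Tox, Cd247, the CD3 zeta chain, was at rank 3 (0.76). The genes that came up in this way were named after their values were seen.

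The members did not all vary together. Without GFP tumor 7, r was 0.73 between Ctla4 and Icos, 0.69 between Cd274 and Icos, 0.69 between Cd274 and Ctla4 and 0.60 between Ctla4 and Havcr2. Lag3 and Pdcd1 had 0.53 with each other, but Lag3 had -0.07 with Havcr2 and -0.01 with Ctla4, and Pdcd1 had -0.04 with Havcr2. The median r with NK cell markers was 0.72 for Cd274, 0.51 for Icos and 0.44 for Ctla4, beside 0.19 for Lag3 and 0.07 for Pdcd1. With macrophage and monocyte markers it was 0.60 for Lag3, 0.37 for Tox, 0.30 for Icos and 0.21 for Pdcd1, and 0.06 for Havcr2. With melanocyte markers it was -0.61 for Lag3, -0.45 for Pdcd1 and -0.42 for Icos, and with keratinocyte markers 0.63, 0.56 and 0.25. With T cell markers all 8 were positive, from 0.21 for Ido1 to 0.53 for Pdcd1 and 0.55 for Icos. The part of tissue content in these patterns was not tested.

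**Figure D5:**
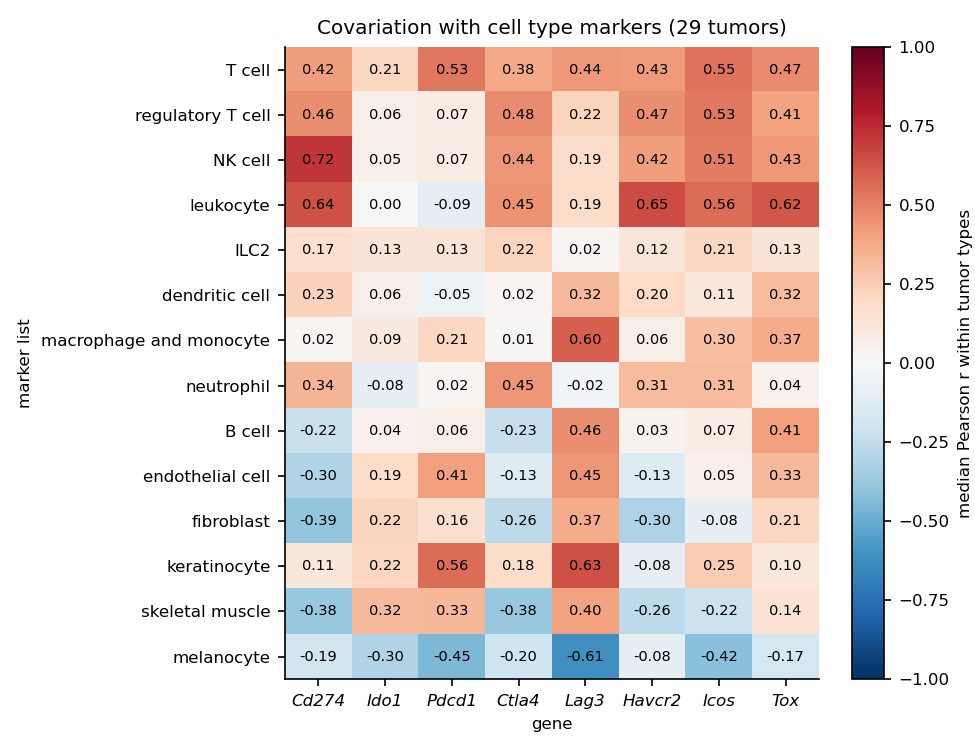
Median Pearson r (color and printed value) between each gene (horizontal) and the genes of each marker list (vertical), from log2 CPM centred within tumor types over 29 tumors, without GFP tumor 7. Cd274 has its highest value with NK cell markers (0.72), Lag3 with keratinocyte markers (0.63) and its lowest with melanocyte markers (-0.61).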

How the data were processed

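RNA of 30 whole tumors, 10 per type, was sequenced by the authors in stranded mRNA libraries, as single reads of 50 bases. Per their text and the submitters' processing notes, reads were checked with FastQC 0.11.3, aligned with HISAT2 2.0.4 and counted per gene. The build is mm10 in the notes and mm11 in the paper. The annotation release, overlap mode, strand setting and use of reads with several alignments are not given in the sources used here. The authors deposited raw counts per gene, without normalization. Coordinates and symbols are from GENCODE M21 (GRCm38). Cd274 exons overlap AC119228.1 and Tox exons overlap Gm11802, each on the other strand, so strand settings could affect them.

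In R 4.3.3, edgeR 4.0.16 (TMM, quasi-likelihood test) was fitted to all 30 tumors and the 15926 genes averaging 10 or more counts per tumor, with Benjamini-Hochberg adjustment. The authors used DESeq2, which was the alternative here (1.42.0). Log2 CPM took a prior count of 2. The CD3 fit replaced TMM by summed Cd3d, Cd3e and Cd3g counts. The TMM fit was tested on simulated data in which 200 genes changed, far fewer than were called against GFP tumors. That test therefore does not cover broad shifts such as those seen here. Depth of 14598517 to 19788383 counts limits genes with few counts. The members, lists and rules were chosen with earlier results of these data known. Genes named are the members, the 2 largest rises and 2 largest falls past the test of each list and comparison, and the 3 genes most like each member. 1 item that this rule takes is not reported here. Plots were drawn with Python 3.11.15 and matplotlib 3.10.9. Alternatives were other scalings, filters, DESeq2, fewer samples and a replicate block.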

Additional observations from a re-analysis of the deposited data

Results flagged for a closer look

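Over 24 groups of 10 tumors, each tumor's distance from its group was examined with Dixon's test, which flags about 1 in 20 groups by chance. It flagged 2. Icos was low in GFP tumor 7, with a log2 CPM of -3.096 at 0 counts, where the next tumor had -0.1041. Ido1 was high in IFNα4 tumor 4, with a log2 CPM of 1.83 at 58 counts, where the next tumor had 0.2223.

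Lag3 differed between the interferon types by a log2 fold change of -0.7823 for IFNα9 against IFNα4 tumors (edgeR adjusted p = 0.0115). Havcr2 differed by -0.5855 (edgeR adjusted p = 0.0116). Per CD3 count neither was called, with -0.40 (edgeR adjusted p = 0.239) for Lag3 and -0.12 (edgeR adjusted p = 0.686) for Havcr2. Per library, NK cell markers were lower in IFNα9 tumors in 3 of 6 cases. Of 10 T cell markers 0 were called, with a median log2 fold change of -0.38. Other lists moved as well, with 3 of 4 endothelial, 3 of 4 skeletal muscle, 1 of 3 fibroblast and 2 of 4 neutrophil markers lower, Csf3r among the last at -0.78 (adjusted p = 0.0124). Of 8 macrophage and monocyte markers, named like Csf3r after their values were seen, Ly6c2 was lower, at -0.89 (adjusted p = 0.000291), and Mrc1 higher, at 0.73 (adjusted p = 0.0143). Of 4 tested ILC2 markers 1 was lower, Il1rl1, at -1.90 (adjusted p = 2.23e-05), and of 3 melanocyte markers 2 were higher, Tyrp1 at 0.81 (adjusted p = 0.00269) and Mitf at 0.41 (adjusted p = 0.0376), also named after their values were seen. Of 9 dendritic cell markers 2 were higher, Ccl22 at 1.09 (adjusted p = 0.000470) and Xcr1 at 0.69 (adjusted p = 0.0303), named in the same way. The part of these cell types in either difference was not tested.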

How the results depend on the processing

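Over 37 alternatives per comparison, the calls of the 7 called members against GFP tumors kept their direction and stayed past the threshold, as did those of Lag3 and Havcr2 between the interferon types (adjusted p at most 0.0287 and 0.0262). Ido1 passed against GFP only without GFP tumor 3, which gave 8 called members in each comparison. Leaving out each tumor in turn gave 7 to 8, 7 to 8 and 2 to 2 called members, and 9949 to 10547, 8410 to 9195 and 2106 to 3801 genes called. Fitting only the 2 interferon types gave 4332 genes in place of 2833, with fewer samples. With library totals, 58.3% of calls in IFNα9 against GFP tumors were higher, in place of 48.2%, and the median log2 fold change of all genes was 0.10.

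Replicate numbers did not pair the tumors. Same-numbered tumors had correlations from -0.27 to 0.30, and 1, 1 and 0 of 10 tumors correlated best with their own number. With the replicate block, 7, 7 and 2 members and 10249, 8626 and 2538 genes were called.

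Per CD3 count, members called in IFNα9 against GFP tumors fell from 2 to 1 with Ptprc scaling (1), with coreceptor scaling (1) and with the replicate block (1), Lag3 being lost. Without single tumors, a setting added for CD3 after seeing the data except for GFP tumor 7, the count was 1 to 4. Lag3 was lost without GFP tumor 1, 3, 4, 7, 8 or 9, any IFNα4 tumor except 3, or IFNα9 tumor 2, 3, 4, 6, 7 or 9. Without GFP tumor 10, Pdcd1 was called lower (-0.69, adjusted p = 0.0332) and Tox higher (0.57, adjusted p = 0.0410), and Pdcd1 was called lower without IFNα9 tumor 5 (-0.67, adjusted p = 0.0478). In IFNα4 against GFP tumors the count was 1 to 2. Genes called between the interferon types were 1458 with Ptprc scaling, 362 with the replicate block and 5014 with coreceptors and without GFP tumor 8, a setting added after seeing the data because of its Cd4 count. In that setting 3 members, Pdcd1, Lag3 and Havcr2, were called and lower in each interferon type against GFP tumors, beside 15615 and 15455 of all genes tested, so this count is no result about the members. Lag3 was -0.70 (adjusted p = 0.0275) in IFNα4 and -0.78 (adjusted p = 0.0155) in IFNα9 tumors, and Pdcd1 was -0.89 (adjusted p = 0.0141) in IFNα9 tumors. Without single tumors the genes called between the interferon types ran from 294, without IFNα9 tumor 10, to 4935, without GFP tumor 7. The cause was not tested. The low counts of Pdcd1, Ctla4, Tox and Ido1 in GFP tumors, and 21 CD3 counts in GFP tumor 7, limit precision.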
